A study of Mus musculus with 16 samples.

Results

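Acetylation of histone H3 at lysine 27 (H3K27ac) in livers of NCoR1 knockout (KO) mice on chow was compared with that in wild-type (WT) mice on chow. The comparison took 3 KO and 3 WT libraries of the 12 H3K27ac libraries of the series, and all 52645 regions of the read count table, of which 52606 had enough reads to be tested. Per the labels, both genotypes carried the strain background C57BL/6J, were 6 weeks old at the start, stayed on chow for 3 weeks and gave livers on day 21. The other 6 libraries, KO and WT after 3 weeks of a low-iodine diet with 0.15% propylthiouracil (PTU/LID), served for 1 comparison near the end and for the estimate of the spread. The labels name neither the deleted part of NCoR1, nor the cells that lost it, nor the sex of the mice. By the numbers in their labels, the KO libraries are called KO-122, KO-146 and KO-190 and the WT libraries WT-96, WT-99 and WT-106, and values of single libraries follow that order. Whether each number is 1 animal is not stated, so a p-value here reflects how much the libraries themselves vary.

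NCoR1 binds nuclear receptors that lack their ligand, such as the thyroid hormone receptors, and brings histone deacetylase 3 (HDAC3) to their target genes. HDAC3 removes acetyl groups from histones, and H3K27ac marks active promoters and enhancers. Thyroid hormone releases the corepressor from its receptors, while other partners, such as the liver X receptors (LXRs) and the clock repressors of the REV-ERB family, also use NCoR1 in liver. A chow diet leaves thyroid hormone production intact, so the comparison asks what the corepressor holds down while the hormone is present. No hormone values were used here.

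Total counts per library ran from 5628758 to 6707960 in KO and from 2965505 to 5831372 in WT. Mitochondrial regions took 4.21%, 17.2% and 2.996% of the counts in KO and 4.25%, 6.12% and 0.821% in WT. No 2 libraries agreed within sampling noise. Levels are given as CPM, the count as a share of the library total on a common scale, with totals corrected by TMM factors, which set the bulk of the regions equal between libraries. A gene-level CPM sums the regions inside a gene or nearest to it within 50 kb. All adjusted p-values below come from edgeR's quasi-likelihood test with Benjamini-Hochberg adjustment over all regions or all genes, and an adjusted p below 0.05 counts as passing.

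Acetylation at the Ncor1 gene itself did not differ in a way that passed. Summed over its 6 regions it was 52.0, 64.2 and 45.5 gene-level CPM in KO, against 62.3, 58.1 and 44.5 in WT. The groups overlapped, and the log2 fold change of KO over WT was -0.02 ± 0.16 (SE, adjusted p = 0.968), a value that took either sign among the alternatives. Since the deleted part is not named, this does not check the genotype of a library.

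Loss of NCoR1 on chow was accompanied by more acetylation at 845 regions and less at 433, or 1.61% and 0.823% of the regions tested (1278 in all, 2.43%). Regions that rose were long and strong, with a median length of 1016 base pairs and a median level of 23.4 CPM, against 469 base pairs and 8.91 CPM over all regions tested. Those that fell with TMM factors were short and weak, at 433 base pairs and 6.87 CPM, though their level depended on the normalization, as given below. The median log2 fold change was 0.93 for regions that rose and -1.20 for those that fell, and it was -0.01 over all. At gene level 454 of 11448 genes passed (3.97%), with 278 higher (2.43%) and 176 lower (1.54%). Groups that do not overlap are common with 3 libraries each. KO lay wholly above WT at 14.7% of all genes and 11.9% of regions, and wholly below at 13.8% and 11.6%. The regions and genes named for the largest changes were picked among those without overlap, so for them this is part of the choice. Of 182 genes with at least 2 called regions, 48 had all of them lower, 12 some of each and the rest all higher.

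**Figure D1:**
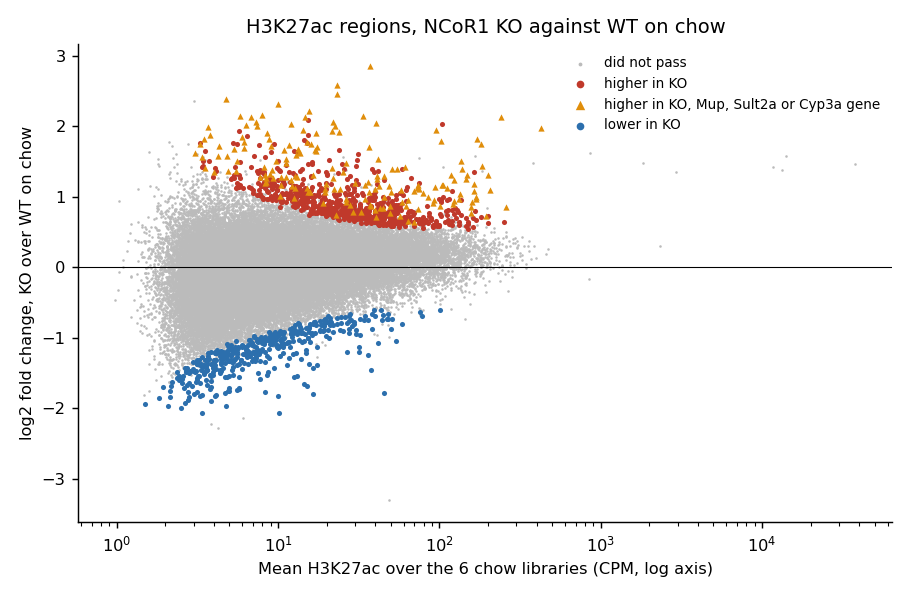
Each point is 1 of 52606 tested regions, with its mean level over the 6 chow libraries (CPM, log axis) on the horizontal axis and its log2 fold change, KO over WT, on the vertical axis. Colours mark the 845 regions that passed as higher in KO, with triangles for the Mup, Sult2a and Cyp3a genes, and the 433 that passed as lower. The highest-level points to the far right did not pass, among them the 4 mitochondrial regions.

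The count of calls moved with each library left out. It was 579, 651 and 499 regions without KO-122, KO-146 and KO-190, and 799, 448 and 536 without WT-96, WT-99 and WT-106. The balance of the 2 directions rested on the scaling and on the threshold. With TMM factors 66.1% of the called regions and 61.2% of the called genes were higher in KO. Among those with an absolute log2 fold change of at least 1 it was 53.1% and 50%. Cyclic loess normalization, described below, gave 63.7% and 51.4%. With library totals alone, which put the median log2 fold change at -0.20 for all regions and -0.12 for all genes, against -0.0057 and -0.0048 with TMM, 18.3% and 23.5% of those called were higher. Totals of nuclear regions alone, an alternative added after the data were seen, gave 36.7% and 22.4%. All fold changes here are therefore relative to the typical region.

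The fold change also went with the level of a region. In 4 sets of equal size by mean CPM, lowest first, the median log2 fold change was -0.21, -0.08, 0.02 and 0.13. The share that rose was 0.251%, 0.722%, 1.85% and 3.6% in the same order, and the share that fell was 1.1%, 0.928%, 0.768% and 0.494%. After cyclic loess normalization, which levels such a trend, the medians lay between 0.01 and 0.02, and 844 regions rose and 482 fell. In the 4 sets, lowest first, 96, 166, 237 and 345 regions then rose and 37, 75, 134 and 236 fell. Losses were thus most frequent at high levels, the reverse of the order with TMM factors, while gains were most frequent at high levels with both. The chow libraries of higher mitochondrial share were the 3 KO and WT-96 and WT-99. With these as the chow libraries, which is the fit without WT-106 given above (536 regions), 420 regions rose and 116 fell. A set of lower share held WT-106 alone on chow, so no value exists within it. The model term for the mitochondrial share used below splits all libraries at 2%, so on chow it sets only WT-106 apart.

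By position, the share of regions that rose was highest far from genes. Between genes but within 50 kb of one, 246 of 8365 regions rose (2.94%) and 98 fell (1.17%). Farther than 50 kb it was 120 of 3537 higher (3.39%) and 46 lower (1.3%). Within 2.5 kb of a gene end, where promoters lie, 208 of 17758 rose (1.17%) and 73 fell (0.411%), and deeper inside genes 271 of 22941 rose (1.18%) and 216 fell (0.942%). By chromosome, the share that rose was highest on chromosome 4 (158 of 3811 regions, 4.15%), chromosome 5 (98 of 3412, 2.87%) and chromosome 8 (71 of 2978, 2.38%). Chromosome 4 holds the Mup genes and chromosome 5 the Cyp3a genes. Within 5 Mb of Ncor1 on chromosome 11, 8 of 306 regions rose and 2 fell (2.61% and 0.654%), against 40 and 31 of 3892 on the whole chromosome (1.03% and 0.797%). Regions named below at Srebf1, Mrpl55 and Btnl10 lie in this window. Whether this position plays a part in their values was not tested.

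The largest gains lay at the Sult2a genes on chromosome 7, which encode sulfotransferases that conjugate bile acids and steroids. This family, and the Cyp3a and Mup families below, were singled out after their values were seen. All 8 Sult2a genes tested rose, against 2.43% of all genes, with a median log2 fold change of 1.51, against -0.0048 over all genes. Of their 31 regions 15 rose, against 1.61% of all regions. The region with the largest gain was the one at Sult2a3 (chr7:14121843-14123140). It held 55.7, 77.4 and 60.8 CPM in KO, against 11.7, 9.39 and 6.45 CPM in WT. Each KO library was several times above each WT library (log2 fold change 2.86 ± 0.31 SE, adjusted p = 2.28e-05). The region covers part of the Sult2a3 promoter, shown here because it carries the largest gain of the comparison. The window is chr7:14122999-14123298 on the minus strand of GRCm38.p6, the assembly of mm10, from RefSeq, printed 5′ to 3′ with the 142 bases inside the called region in capitals.
Sult2a3: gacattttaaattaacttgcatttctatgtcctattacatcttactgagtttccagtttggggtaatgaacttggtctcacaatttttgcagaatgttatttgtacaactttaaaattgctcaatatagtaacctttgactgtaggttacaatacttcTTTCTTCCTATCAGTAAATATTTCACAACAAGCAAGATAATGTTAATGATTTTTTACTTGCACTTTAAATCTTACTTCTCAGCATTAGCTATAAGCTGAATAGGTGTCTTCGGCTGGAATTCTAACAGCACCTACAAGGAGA
Sult2a1, a member with higher levels in livers of female mice, had 97.6, 107.8 and 106.1 gene-level CPM in KO, against 25.6, 20.9 and 19.2 in WT. No WT library came near the KO libraries (2.264 ± 0.25, adjusted p = 8.16e-05). Next came Sult2a2 at 2.22 ± 0.17 (adjusted p = 6.02e-08), Sult2a3 at 2.11 ± 0.33 (adjusted p = 0.00632) and, lower, Sult2a5 at 1.39 ± 0.29 (adjusted p = 0.0112), and the lowest of the 8 was 0.65. Sult2a5 did not pass without WT-99 or WT-106 (adjusted p = 0.0562 and 0.0718) or with regions at gene ends alone (0.158). The copies are close in sequence, so reads may be shared among them and which member carries a gain is uncertain.

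Genes of the Cyp3a cluster, cytochromes P450 that oxidize steroids and drugs, rose at 5 of 8 members and at 43 of 85 regions. This compares with 2.43% of all genes and 1.61% of all regions, and the median log2 fold change was 0.84. Cyp3a16 had 224, 316 and 279 gene-level CPM in KO, against 104, 81.3 and 49.8 in WT. The log2 fold change was 1.82 ± 0.26 (adjusted p = 0.00319). Cyp3a41a had 154.9, 300.2 and 232.6 gene-level CPM in KO, against 82.2, 80.03 and 41.6 in WT. KO-146 was the highest and WT-106 the lowest (1.78 ± 0.36, adjusted p = 0.0282). Cyp3a41b rose by 1.56 ± 0.28 and Cyp3a44 by 1.27 ± 0.21, while Cyp3a11, a major drug-metabolizing member, had 0.41 ± 0.12 (adjusted p = 0.0587). With 1 library left out, Cyp3a41a passed only without KO-122 (adjusted p = 0.0536 to 0.0777 otherwise). In a fit on the 6 chow libraries alone Cyp3a41a and Cyp3a41b did not pass (0.0746 and 0.0587). The promoters of these 2 genes show how close the copies are, with 292 of 300 bases (97.3%) identical when aligned without gaps. Capitals mark the 8 positions that differ in this alignment, in which the longer CA repeat of Cyp3a41b near the 3′ end counts as several differences. The windows are chr5:145720087-145720386 for Cyp3a41a and chr5:145584681-145584980 for Cyp3a41b, both on the minus strand of GRCm38.p6, from RefSeq.
Cyp3a41a: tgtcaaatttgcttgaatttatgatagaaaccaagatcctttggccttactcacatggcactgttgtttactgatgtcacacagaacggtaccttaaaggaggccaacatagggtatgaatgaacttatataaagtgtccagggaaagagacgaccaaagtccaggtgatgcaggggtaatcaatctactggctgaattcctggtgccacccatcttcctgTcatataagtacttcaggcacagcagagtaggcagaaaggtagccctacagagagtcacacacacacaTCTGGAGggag
Cyp3a41b: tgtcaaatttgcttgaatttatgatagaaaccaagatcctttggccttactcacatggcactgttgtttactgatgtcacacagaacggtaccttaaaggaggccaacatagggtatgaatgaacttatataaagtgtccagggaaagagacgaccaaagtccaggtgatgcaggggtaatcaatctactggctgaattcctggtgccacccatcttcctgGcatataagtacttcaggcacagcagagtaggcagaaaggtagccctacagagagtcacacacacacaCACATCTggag
Each of these genes has a called region, at chr5:145719090-145720105 (2.22 ± 0.31) and chr5:145583767-145584386 (2.32 ± 0.32). Reads shared between the copies could give a call at both, so which copy carries the gain is uncertain. A further called region lies 14.1 kb from Cyp3a16 (chr5:145422114-145422373, 2.39 ± 0.40).

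Mup genes on chromosome 4, which encode the major urinary proteins that bind pheromones, rose at 18 of 23 members and at 113 of 206 regions. The shares were 2.43% of all genes and 1.61% of all regions, and the median log2 fold change of Mup genes was 1.05. Mup17 had 1409, 1142 and 1381 gene-level CPM in KO, against 529, 366 and 371 in WT. The lowest KO library was at more than double the highest WT library (1.64 ± 0.17, adjusted p = 6.22e-05). Mup15 rose by 1.76 ± 0.19, Mup-ps16 by 1.47 ± 0.23 and Mup1 by 1.003 ± 0.13. Within the Mup-ps12 locus, a region at chr4:61441960-61447886 held 405, 327 and 453 CPM in KO, against 117.2, 77.0 and 75.55 in WT (2.14 ± 0.18, adjusted p = 6.09e-10). A further region 2.6 kb from Mup10 (chr4:60584452-60585344) rose by 2.07 ± 0.26. Of the members that did not pass, Mup20 had 0.23 ± 0.11, Mup3 0.32 ± 0.11, Mup6 0.92, Mup16 0.77 and Mup21 -0.31. With regions at gene ends alone Mup17 had an adjusted p of 0.114. These genes are near-identical copies, so the split of reads among members is uncertain. The whole Mup17 promoter window (chr4:61595783-61596082, minus strand, GRCm38.p6, RefSeq) lies inside a called region that rose by 1.98 on the log2 scale, and is therefore in capitals throughout.
Mup17: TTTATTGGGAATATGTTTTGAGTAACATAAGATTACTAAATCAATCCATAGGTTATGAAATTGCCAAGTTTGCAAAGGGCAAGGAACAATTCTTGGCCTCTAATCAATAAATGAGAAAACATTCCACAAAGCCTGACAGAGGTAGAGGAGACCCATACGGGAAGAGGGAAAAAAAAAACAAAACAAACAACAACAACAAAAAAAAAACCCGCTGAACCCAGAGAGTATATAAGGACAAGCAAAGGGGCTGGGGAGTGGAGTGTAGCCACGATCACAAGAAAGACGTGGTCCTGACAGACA

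The 3 families held 171 of the 845 regions that rose and 0 of those that fell. Outside them 674 regions and 247 genes rose, and 433 regions and 176 genes fell. Outside the families, the named region with the largest gain lay inside Acot11, an acyl-CoA thioesterase that limits fatty acid use in brown fat and liver (chr4:106767802-106768566). It held 24.9, 24.2 and 25.7 CPM in KO, against 6.02, 4.14 and 6.94 in WT (2.09 ± 0.26, adjusted p = 3.28e-06). Acot11 as a whole, chosen after its values were seen, had 249.7, 217.6 and 252.2 gene-level CPM in KO, against 123.9, 119.1 and 104.7 in WT. KO libraries were at about double the WT libraries with no overlap (1.05 ± 0.12, adjusted p = 1.95e-05). A region on an Acot11 promoter (chr4:106799869-106800392) rose by 1.25 ± 0.29 (adjusted p = 0.0123), a call lost without KO-190, WT-96 or WT-106 (adjusted p = 0.0707 to 0.0964). Also chosen after their values were seen, Setbp1, which encodes a binding partner of the SET protein, rose by 1.24 ± 0.15 and Abcd3, a transporter of the peroxisome membrane, by 0.84 ± 0.12 (adjusted p = 3.75e-05 and 0.000142). Setbp1 did not pass with regions at gene ends alone (adjusted p = 0.126).

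**Figure D2:**
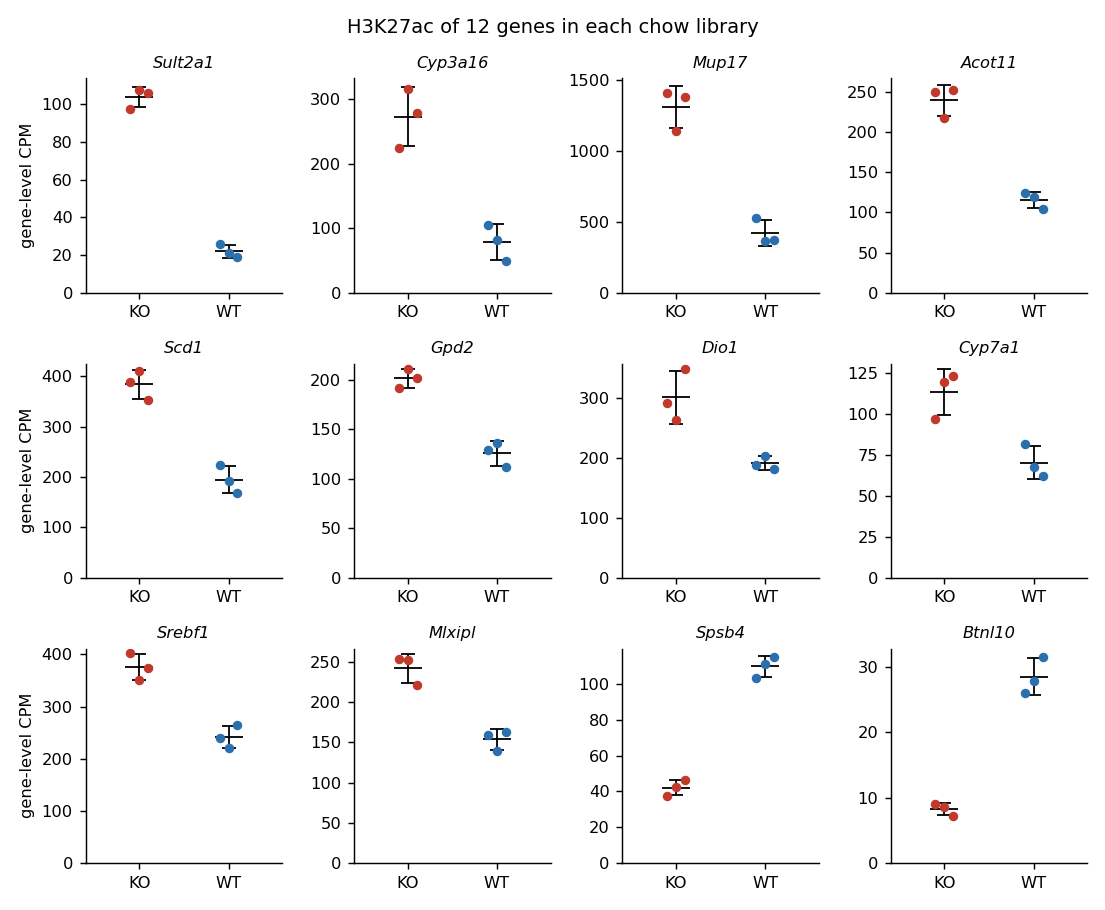
Gene-level H3K27ac (CPM) of 12 genes in each chow library, KO on the left and WT on the right of each panel, with the axis from 0. Points are libraries, the bar is the mean and the whiskers are ± 1 SD (n = 3). KO libraries lie above all WT libraries for the first 10 genes and below them for Spsb4 and Btnl10, and Dio1 had 262 to 348 CPM in KO against 181 to 204 in WT.

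Of the genes that thyroid hormone induces, 15 of the 16 listed could be tested, and 4 of these rose in KO and 0 fell, against 2.43% and 1.54% of all genes. Values were above 0 for 13 of the 15 (86.7%), against 49.4% of all genes, and the median log2 fold change was 0.33. Genes of xenobiotic metabolism (85%) and hepatocyte markers (76.2%) lay mostly above 0 as well, so the share does not set this list apart. The median was 0.22 with cyclic loess, against 0.0084 for all genes, and 0.21 with library totals, against -0.12 for all genes. With the 6 chow libraries alone 8 genes rose, and with a model term for the mitochondrial share 9 did. Hr, a corepressor gene, had no region. Gpd2, the mitochondrial glycerol phosphate dehydrogenase, had 191.6, 210.9 and 201.8 gene-level CPM in KO, against 129, 136 and 111 in WT. KO libraries lay above WT libraries by more than the spread within either group (0.69 ± 0.13, adjusted p = 0.00292). Cyp7a1, which catalyses the first and limiting step from cholesterol to bile acids, had 97.2, 120.0 and 123.3 in KO, against 81.5, 67.5 and 62.2 in WT. KO lay wholly above WT, as at 14.7% of all genes (0.70 ± 0.13, adjusted p = 0.00364). Dio1, the deiodinase that makes active hormone in liver, had 290.5, 262.4 and 348.4 in KO, against 187.6, 203.5 and 181.1 in WT. KO-190 was the highest and no KO library fell to the WT range (0.66 ± 0.17, adjusted p = 0.0314). Fasn, the fatty acid synthase, had 133.5, 122.1 and 141.6 in KO, against 99.3, 83.2 and 93.4 in WT (0.53 ± 0.14, adjusted p = 0.0329). The region on the Fasn promoter (chr11:120824655-120825607) rose by 0.81 ± 0.22 (adjusted p = 0.0387).

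At Dio1 the gain lay on the body of the gene and reached into its promoter. The region at chr4:107303100-107307183 held 156, 141 and 196 CPM in KO, against 90.6, 96.6 and 94.4 in WT. WT libraries were within a few CPM of each other and all KO libraries were above them (0.81 ± 0.17, adjusted p = 0.00493). The promoter window is chr4:107307119-107307418 on the minus strand of GRCm38.p6, from RefSeq, with the 65 bases inside the region in capitals.
Dio1: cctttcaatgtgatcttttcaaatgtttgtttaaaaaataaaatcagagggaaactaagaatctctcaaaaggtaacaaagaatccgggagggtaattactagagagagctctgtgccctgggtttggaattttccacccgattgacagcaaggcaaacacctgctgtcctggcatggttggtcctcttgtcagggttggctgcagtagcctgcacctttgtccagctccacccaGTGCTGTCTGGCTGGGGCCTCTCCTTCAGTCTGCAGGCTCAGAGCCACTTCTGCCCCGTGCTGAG
Without KO-190 this region did not pass (adjusted p = 0.0788).

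Of the remaining members, none passed at gene level. Values were 0.50 ± 0.23 for Idh3a of the citric acid cycle, 0.39 ± 0.14 for Thrsp, a lipogenic regulator, 0.35 ± 0.15 for the transcription factor Klf9 and 0.33 ± 0.11 for Bcl3, an NF-κB cofactor. They were 0.32 ± 0.15 for malic enzyme, Me1, and 0.28 ± 0.11 for glucose 6-phosphatase, G6pc. Cpt1a, the gate of mitochondrial fatty acid oxidation, had 0.145 ± 0.11, the calcium pump Atp2a2 0.10 ± 0.13 and the coactivator Ppargc1a -0.07 ± 0.12. The gluconeogenic gene Pck1 had 258.6, 279.9 and 284.8 gene-level CPM in KO, against 289.1, 347.3 and 485.3 in WT (-0.45 ± 0.22, adjusted p = 0.282). Of single regions, 1 of 11 at Pck1 and 1 of 18 at Ppargc1a passed as lower, against 0.823% of all regions tested. Atp2a2 and Ppargc1a changed sign among the alternatives. With 1 library left out, 2 or 3 of the 15 genes passed. Gpd2 and Cyp7a1 did so without any 1 library, Dio1 without KO-146 alone (adjusted p = 0.0818 to 0.143 otherwise) and Fasn in none of the 6 (0.053 to 0.155). With library totals in place of TMM factors Dio1 and Fasn did not pass (0.129 and 0.0692), nor did Dio1 after thinning to the smallest library (0.0606), and with regions at gene ends alone Gpd2 did not (0.0582). The Fasn region passed with 1 library left out only without KO-146 or WT-106 (0.125 to 0.166 otherwise), and neither with library totals nor with cyclic loess (0.0907 and 0.0635).

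Lipogenic genes lay mostly above 0 too. Of 22, 6 rose and 0 fell, against 2.43% and 1.54% of all genes. The median was 0.32 and 19 values were above 0 (86.4%, against 49.4% of all genes and 85% of xenobiotic genes). With cyclic loess and with library totals the median was 0.21 and 0.20, and 7 and 4 genes rose. The count was 10 with the 6 chow libraries alone, 12 with the mitochondrial term and 2 to 4 with 1 library left out. Scd1, the stearoyl-CoA desaturase, had 389, 411 and 354 gene-level CPM in KO, against 224, 193 and 169 in WT. All KO libraries were far above the WT range (0.98 ± 0.11, adjusted p = 1.95e-05). Srebf1, which encodes the lipogenic transcription factor SREBP-1, had 402, 351 and 374 in KO, against 240.0, 221.0 and 263.7 in WT (0.63 ± 0.13, adjusted p = 0.00678). Srebf1 lies within 5 Mb of Ncor1 on chromosome 11, and whether this position plays a part was not tested. Mlxipl, which encodes the glucose-sensing factor ChREBP, had 253, 252 and 221 in KO, against 159, 139 and 163 in WT (0.65 ± 0.11, adjusted p = 0.00183). Neither gene's groups overlapped. The others that rose were Fasn, Agpat2 of phospholipid and triglyceride synthesis (0.53 ± 0.14) and, named after its value was seen, Acaca, the acetyl-CoA carboxylase (0.47 ± 0.11).

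Both regulators gained acetylation on a promoter, and their windows are shown for that reason. At Srebf1 the region at chr11:60207214-60210450 held 144, 120.2 and 139 CPM in KO, against 70.6, 59.1 and 77.5 in WT (0.96 ± 0.18, adjusted p = 0.00168). At Mlxipl the region at chr5:135089829-135091105 held 17.97, 24.003 and 18.65 CPM in KO, against 10.8, 9.39 and 8.93 in WT (1.07 ± 0.23, adjusted p = 0.00764). In both, every KO library exceeded every WT library. The windows are chr11:60210422-60210721 on the minus strand and chr5:135089640-135089939 on the plus strand of GRCm38.p6, from RefSeq. Capitals mark the 145 and 111 bases inside called regions, which at Srebf1 are parts of 2 regions. The Srebf1 region with values above is the one at the 3′ end of the window, and values of the other are not given.
Srebf1: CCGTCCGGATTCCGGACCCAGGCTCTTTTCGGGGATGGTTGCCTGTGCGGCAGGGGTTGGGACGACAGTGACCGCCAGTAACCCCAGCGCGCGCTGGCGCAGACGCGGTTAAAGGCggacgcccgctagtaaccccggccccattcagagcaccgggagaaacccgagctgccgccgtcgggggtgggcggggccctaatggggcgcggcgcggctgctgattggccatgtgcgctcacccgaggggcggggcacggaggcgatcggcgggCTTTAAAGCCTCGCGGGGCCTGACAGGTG
Mlxipl: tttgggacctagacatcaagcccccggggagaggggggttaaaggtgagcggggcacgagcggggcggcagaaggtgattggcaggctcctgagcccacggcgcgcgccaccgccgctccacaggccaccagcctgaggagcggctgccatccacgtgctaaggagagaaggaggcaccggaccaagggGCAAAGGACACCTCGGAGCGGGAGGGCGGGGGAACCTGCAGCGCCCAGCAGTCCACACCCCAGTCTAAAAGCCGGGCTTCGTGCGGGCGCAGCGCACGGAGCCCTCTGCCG
Without 1 library, Srebf1 was lost at gene level without WT-99 (adjusted p = 0.0565), the Mlxipl region without KO-146 or WT-106 (0.0524 and 0.0637), Agpat2 without any library but WT-96 (0.0633 to 0.175) and Acaca without any but WT-106 (0.053 to 0.0603). Fasn was lost in all 6 (0.053 to 0.155). With library totals alone Fasn and Agpat2 did not pass (0.0692 and 0.0829), and Agpat2 did not after thinning (0.0854). With regions at gene ends alone Srebf1 and Agpat2 had 0.121 and 0.0577.

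LXRs are receptors for oxysterols that drive sterol export and lipogenesis. Of 13 listed targets, Scd1, Srebf1 and Abcg8 rose and Mylip fell, against 2.43% and 1.54% of all genes, with a median of 0.26. Srebf1, as stated above, lies within 5 Mb of Ncor1. The median was 0.16 with cyclic loess and 0.15 with library totals, and 6 targets rose with the mitochondrial term and 1 to 3 with 1 library left out. Abcg8, a subunit of the transporter that moves sterols into bile, had 143, 136 and 127.8 gene-level CPM in KO, against 89.01, 89.1 and 95.7 in WT. The groups did not overlap (0.57 ± 0.12, adjusted p = 0.0082). The region on its promoter (chr17:84683107-84684527) rose by 0.67 ± 0.17. Mylip, which encodes a ubiquitin ligase, had 57.7, 63.3 and 56.6 in KO, against 83.3, 78.8 and 88.7 in WT (-0.50 ± 0.13, adjusted p = 0.0357). Abca1, the exporter that loads HDL with cholesterol, had 0.31 ± 0.09 over its 34 regions (adjusted p = 0.0587), and Lpcat3, which remodels phospholipids, had 0.26 ± 0.11.

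Within the Abca1 locus the promoter itself rose. Its region at chr4:53158848-53159973 held 65.1, 50.8 and 61.7 CPM in KO, against 29.1, 36.4 and 40.2 in WT. The lowest KO library was above the highest WT library (0.74 ± 0.19, adjusted p = 0.0325). The window is chr4:53159846-53160145 on the minus strand of GRCm38.p6, from RefSeq, with the 128 bases inside the region in capitals.
Abca1: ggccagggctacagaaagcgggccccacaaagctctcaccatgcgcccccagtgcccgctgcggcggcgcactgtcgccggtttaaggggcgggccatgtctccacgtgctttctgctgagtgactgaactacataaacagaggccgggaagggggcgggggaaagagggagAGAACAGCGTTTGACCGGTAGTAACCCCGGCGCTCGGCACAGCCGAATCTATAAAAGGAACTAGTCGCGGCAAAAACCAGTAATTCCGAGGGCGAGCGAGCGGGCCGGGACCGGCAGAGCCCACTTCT
A region at an end of the neighbouring non-coding RNA gene Lexis1, an LXR target in mouse liver (chr4:53218327-53219058, chosen after its values were seen), held 12.5, 14.7 and 16.4 CPM in KO, against 6.65, 6.90 and 5.95 in WT (1.17 ± 0.28, adjusted p = 0.0188). These calls were close to the threshold. The Abca1 region was lost without any library but KO-146 (adjusted p = 0.0532 to 0.14), the Lexis1 region without any but KO-122 (0.0504 to 0.111), the Abcg8 region without any but KO-190 and WT-106 (0.0702 to 0.126) and Mylip without any 1 of the 6 (0.0618 to 0.143). Abcg8 and Srebf1 as genes were lost without WT-99 (0.0559 and 0.0565). With library totals or cyclic loess the Abca1 region (0.0881 and 0.0527) and the Abcg8 region (0.114 and 0.0554) did not pass. Nor did they after thinning (0.0574 and 0.0656), where Mylip had 0.116. With regions within 10 kb or at gene ends alone Mylip had 0.121 and 0.12.

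Other metabolic lists had members that passed too, where 2.43% of all genes rose and 1.54% fell. Of 27 genes of PPARα and fatty acid oxidation 4 rose and 0 fell (median 0.13), namely the peroxisomal thiolase Acaa1b (0.58 ± 0.12, adjusted p = 0.00968), the fatty acid importer Cd36 (0.53 ± 0.12), Cpt2 (0.52 ± 0.15) and the peroxisomal enzyme Ehhadh (0.47 ± 0.10). The receptor gene Ppara had 0.17 ± 0.10, with the opposite sign under cyclic loess. Of 22 cholesterol genes the sterol desaturase gene Sc5d rose (0.49 ± 0.11, adjusted p = 0.0112), and the median was 0.17. Fdft1, the squalene synthase, had 0.35 ± 0.11 and Insig1, which retains the sterol sensor, 0.16 ± 0.12, which changed sign under cyclic loess. Of 9 genes of lipid droplets 0 passed, with 0.24 ± 0.11 for the droplet coat gene Plin2 and 0.37 ± 0.12 for the lipase inhibitor G0s2 and a median of 0.24, while 4 had an unadjusted p below 0.05 and DESeq2 and cyclic loess called 0. With the 6 chow libraries alone 6 oxidation, 4 cholesterol and 3 lipid droplet genes rose, and with the mitochondrial term 6, 5 and 3 did. With cyclic loess the medians of these lists were 0.071, 0.096 and 0.14, and with library totals 0.013, 0.052 and 0.12. Without WT-99 none of the 4 oxidation genes passed (Acaa1b 0.0519, Ehhadh 0.0585, Cd36 0.0565 and Cpt2 0.145 as adjusted p), nor did Sc5d (0.0804), which was also lost without KO-122 (0.0744). Ehhadh was also lost without KO-146 or KO-190 (0.0617 and 0.0547), Cd36 without KO-146, WT-96 or WT-106 (0.0586 to 0.0955) and Cpt2 without any library but WT-106 (0.0763 to 0.21), and Cd36 and Cpt2 did not pass with cyclic loess (0.0504 and 0.0505), nor Cpt2 with library totals (0.0784), thinned counts (0.0527) or gene ends alone (0.0526).

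Against 2.43% of all genes higher and 1.54% lower, 3 of 21 genes that make or carry bile acids rose and 1 fell (median 0.18). Beside Cyp7a1, these were Akr1d1, the reductase of bile acid synthesis (0.69 ± 0.11, adjusted p = 0.00112), Abcb4, which moves phospholipid into bile (0.41 ± 0.11), and the uptake transporter Slco1a1, which had 11.5, 9.34 and 7.22 gene-level CPM in KO, against 17.4, 25.9 and 15.1 in WT (-1.05 ± 0.27, adjusted p = 0.0321). Of 20 genes of glucose metabolism 4 rose and 0 fell (median 0.20). Among them were the glycogen phosphorylase Pygl (0.58 ± 0.13), the glycogen-targeting subunit Ppp1r3b (0.54 ± 0.10) and the insulin receptor substrate Irs2 (0.50 ± 0.11). Slc2a2, the glucose transporter of hepatocytes, had 0.21 ± 0.11, and Pcx, the pyruvate carboxylase, -0.02 ± 0.11, of either sign among the alternatives. With cyclic loess the medians were 0.11 for bile acid and 0.057 for glucose genes, and with library totals 0.069 and 0.085. With the mitochondrial term 8 bile acid and 9 glucose genes rose and 1 of each fell, and with the 6 chow libraries alone 5 and 6 rose and 1 of each fell. With 1 library left out, Slco1a1 passed without WT-106 alone (adjusted p = 0.0537 to 0.194 otherwise), Abcb4 in none of the 6 (0.0502 to 0.181), Pygl not without KO-190, WT-96 or WT-99 (0.0714 to 0.113) and Irs2 not without KO-122, KO-146, WT-99 or WT-106 (0.0655 to 0.0951). Slco1a1, Abcb4 and Irs2 did not pass with cyclic loess (0.0527, 0.117 and 0.0545), nor Abcb4 with library totals (0.102), nor Akr1d1 and Ppp1r3b with regions within 10 kb (0.0503 and 0.187) or at gene ends alone (0.165 and 0.248).

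Of 19 clock genes 1 rose and 0 fell, against 2.43% and 1.54% of all genes, with a median of 0.31. Values were above 0 for 17 (89.5%), against 49.4% of all genes, 88.9% of lipid droplet genes and 85% of xenobiotic genes. With cyclic loess the median was 0.18 and with library totals 0.19, while 7 rose with the 6 chow libraries alone and 11 with the mitochondrial term. Nfil3, a repressor under REV-ERB control, passed, with 262, 317 and 312 gene-level CPM in KO, against 208, 183 and 212 in WT (0.56 ± 0.14, adjusted p = 0.0234). Per2 had 0.31 ± 0.11 (adjusted p = 0.104). The region on the Per3 promoter (chr4:151043501-151044640) held 35.9, 37.8 and 48.0 CPM in KO, against 12.4, 19.6 and 24.5 in WT (1.08 ± 0.28, adjusted p = 0.0477). It is the only region of Per3, and in the gene-level fit Per3 did not pass (1.07, adjusted p = 0.0616). Time of collection is not used here, so whether the groups differ in it was not tested. Nfil3 passed with 1 library left out only without KO-122 (adjusted p = 0.0591 to 0.128 otherwise), and the Per3 region only without WT-106 (0.0832 to 0.165). With regions at gene ends alone Nfil3 had 0.063.

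Against 2.43% of all genes higher and 1.54% lower, 1 of 12 genes of the growth hormone axis rose and 0 fell. This was Bcl6, a repressor of female-biased genes (0.45 ± 0.10, adjusted p = 0.0119), while Igf1 had 0.18 ± 0.20 and the receptor gene Ghr -0.08 ± 0.12, both of either sign among the alternatives. Of 14 male-biased genes 3 rose (Mup1, Nudt7 and Bcl6) and 2 fell (Slco1a1 and the complement gene C6, -0.85 ± 0.23), with a median of 0.19. Nudt7, a peroxisomal hydrolase of coenzyme A, had 0.49 ± 0.12. Of 17 female-biased genes 5 rose and 0 fell, with a median of 0.32. These were Sult2a1, Cyp3a16, Cyp3a41a and Cyp3a44 of the families above, and Cyp17a1, a steroid hydroxylase named after its value was seen (0.89 ± 0.15, adjusted p = 0.00183). Cyp2b13 had 0.14 ± 0.10, which changed sign under cyclic loess. With cyclic loess and with library totals the median was 0.048 and 0.069 for male-biased and 0.23 and 0.21 for female-biased genes. With 1 library left out, C6 passed in none (adjusted p = 0.0519 to 0.183), Nudt7 only without WT-96 (0.0595 to 0.0992 otherwise) and Slco1a1 only without WT-106 (0.0537 to 0.194). Bcl6 was lost without KO-122 or WT-99 (0.0654 and 0.0519), and Cyp3a41a as given above (0.0536 to 0.0777). Nudt7 did not pass with library totals (0.0534), C6 with cyclic loess or thinned counts (0.0765 and 0.164), Slco1a1 with cyclic loess (0.0527) and Bcl6 with regions at gene ends alone (0.131). The sex of the mice is not used here, so its part in these values was not tested.

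Among the 6 genes of the corepressor complex, Tbl1xr1, which encodes a subunit that links NCoR1 to the deacetylase and to corepressor exchange, rose. It had 296, 319 and 312 gene-level CPM in KO, against 213, 218 and 191 in WT, with no overlap (0.58 ± 0.10, adjusted p = 0.00263). Its paralog Tbl1x had 0.40 ± 0.13 (adjusted p = 0.0846), the subunit gene Gps2 -0.32 ± 0.22 and Hdac3 -0.04 ± 0.17. The sign of Hdac3 was not the same in all alternatives. Of 21 genes of nuclear receptors and coactivators 0 passed at gene level (median 0.00). Of their single regions, 3 of 48 at Rxra and 1 of 5 at Nr1h3 passed as lower, against 0.823% of all regions tested. Gene-level values were 0.00 ± 0.18 for Thra and -0.01 ± 0.10 for Thrb, the thyroid hormone receptors, both of either sign among the alternatives. No gene of xenobiotic metabolism (0 of 20, median 0.14), inflammation (0 of 12, median 0.02), the cell cycle (0 of 8, median 0.25) or housekeeping (0 of 13, median 0.02) passed either with edgeR. Over all genes 3.97% passed. At an unadjusted p below 0.05 there were 6 receptor and coactivator genes, 3 of xenobiotic metabolism, 0 of inflammation, 2 of the cell cycle and 2 of housekeeping, against 2265 of all 11448 genes. DESeq2 called 1 gene each in the first 2 of these lists and cyclic loess 1 receptor or coactivator gene, as lower, and 1 cell cycle gene. With the 6 chow libraries alone 2 receptor or coactivator genes rose and 2 fell, and 1 xenobiotic, 2 cell cycle and 1 housekeeping gene rose. With the mitochondrial term 2 receptor or coactivator genes rose and 1 fell, and 4 xenobiotic, 1 inflammation and 3 housekeeping genes rose, while with library totals 3 receptor or coactivator genes fell. The xenobiotic median was 0.016 with cyclic loess, and those of inflammation (-0.076) and housekeeping (-0.013) were below 0 there. Aldh1a1, a retinaldehyde dehydrogenase, had 0.15 ± 0.10, the acute-phase gene Crp 0.05 ± 0.10 and the actin gene Actb 0.07 ± 0.10, each of which changed sign in at least 1 alternative.

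**Figure D3:**
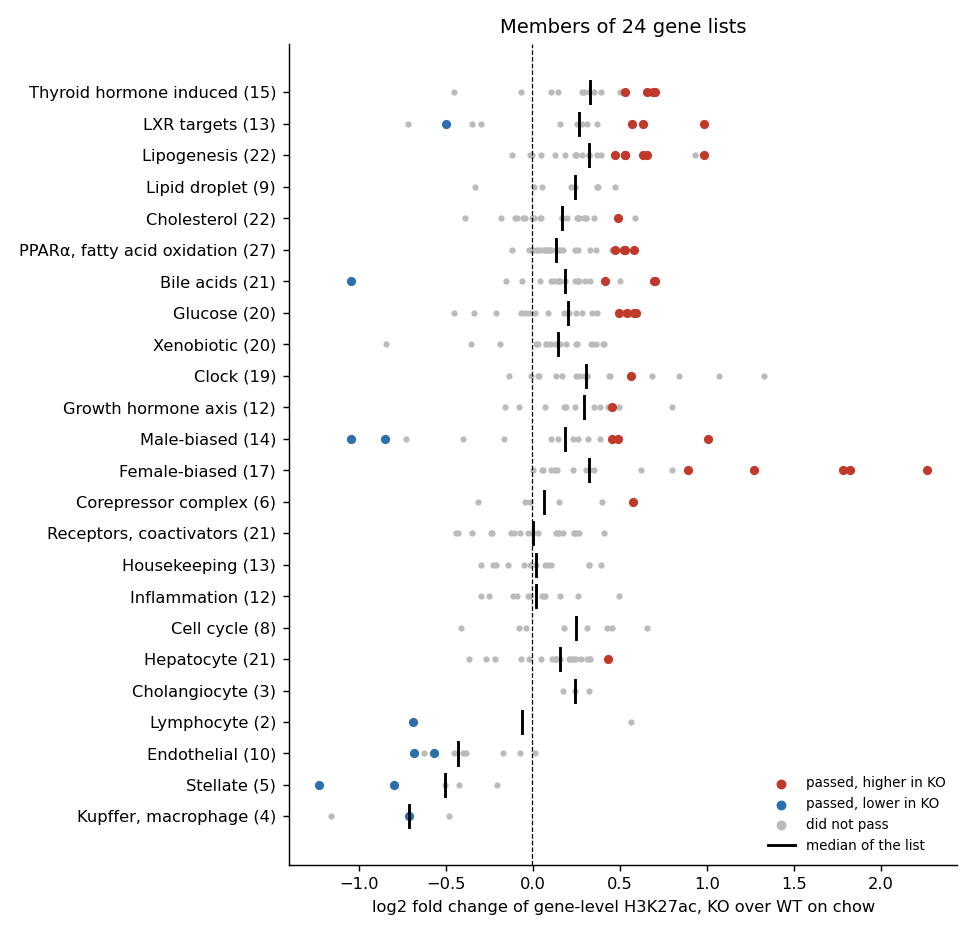
Each point is 1 tested member of 1 of 24 gene lists, at its gene-level log2 fold change, KO over WT on chow, with the number tested in brackets. Red and blue points passed as higher and lower in KO, grey points did not pass, the black bar is the median of the list and the dashed line the median of all genes (-0.0048). Medians of the metabolic lists lie between 0.13 and 0.33, and those of endothelial, stellate and Kupffer cell markers lie at -0.43, -0.51 and -0.71.

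Regions that lost acetylation were spread over many genes, with TMM factors mostly at low levels. The named region with the largest loss lay 0.4 kb from Mrpl55, which encodes a protein of the mitochondrial ribosome (chr11:59201763-59202323). It held 3.63, 2.605 and 5.20 CPM in KO, against 17.7, 17.1 and 14.4 in WT. Every WT library was well above every KO library (-2.07 ± 0.29, adjusted p = 2.28e-05). It reaches 88 bases into the Mrpl55 promoter window (chr11:59202236-59202535, plus strand, GRCm38.p6, RefSeq), in capitals here.
Mrpl55: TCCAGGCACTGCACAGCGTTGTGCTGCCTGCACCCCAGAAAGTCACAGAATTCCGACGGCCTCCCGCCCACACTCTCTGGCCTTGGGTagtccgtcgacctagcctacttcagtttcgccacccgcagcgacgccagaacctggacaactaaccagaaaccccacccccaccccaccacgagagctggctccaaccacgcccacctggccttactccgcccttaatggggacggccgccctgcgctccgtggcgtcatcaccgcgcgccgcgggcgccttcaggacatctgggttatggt
Regions at Spsb4 (-1.83 ± 0.38), F9 (-1.82 ± 0.37), Tmem241 (-1.83 ± 0.28), Vmp1 (-1.78 ± 0.36), Dhx40 (-1.81 ± 0.42) and Btnl10 (-1.79 ± 0.24) fell too. So did 3 regions more than 50 kb from a gene, at chr1:183623676-183623929 (-2.06 ± 0.40), chr8:116284559-116284930 (-1.97 ± 0.34) and chr6:39259485-39259739 (-1.81 ± 0.40). The regions at Mrpl55 and Btnl10 lie within 5 Mb of Ncor1, and had -1.72 and -1.77 on PTU/LID. Whether this position plays a part in their losses was not tested. A region on the promoter of Tat, the tyrosine aminotransferase of hepatocytes (chr8:109989169-109990244), held 7.26, 12.7 and 11.2 CPM in KO, against 15.2, 17.9 and 27.8 in WT (-1.001 ± 0.25, adjusted p = 0.0222). Summed over its 10 regions, Tat as a gene did not pass (-0.22, adjusted p = 0.667). Without KO-190 the chromosome 6 region (adjusted p = 0.0998), the Vmp1 region (0.0585) and the Tat region (0.0696) did not pass, the last also not without KO-122 or WT-106 (0.135 and 0.234), and the Dhx40 region was lost without KO-122, KO-146 or WT-99 (0.0571 to 0.0862). With counts thinned to the smallest library, the regions at F9, Vmp1 and Tat had 0.0658, 0.0509 and 0.0869.

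At gene level the clearest loss was Spsb4, an adaptor of a ubiquitin ligase, with 37.5, 42.6 and 46.2 CPM in KO, against 103.3, 111.3 and 114.9 in WT. WT libraries were at more than double the KO libraries (-1.38 ± 0.12, adjusted p = 3.23e-07). Btnl10, a butyrophilin-like gene, had 9.08, 8.51 and 7.22 in KO, against 25.99, 27.8 and 31.6 in WT (-1.80 ± 0.24, adjusted p = 7.87e-05). As stated above, Btnl10 and Mrpl55 lie within 5 Mb of Ncor1. Mrpl55 (-1.75 ± 0.27), the urea transporter gene Slc14a1 (-1.58 ± 0.30), Ggt5, which cleaves glutathione conjugates such as leukotrienes (-1.39 ± 0.28), and Slfn8 of the schlafen family (-1.38 ± 0.24) followed. Evi2 (-1.34 ± 0.30), the guanylyl cyclase Gucy2c (-1.23 ± 0.27) and Spatc1l (-1.21 ± 0.27) fell as well. Without KO-190, Ggt5 (adjusted p = 0.0567), Evi2, Gucy2c and Spatc1l did not pass. Evi2 was also lost without KO-146 or WT-99 (0.0525 to 0.0824 over the 3), Gucy2c without WT-99 or WT-106 (0.0563 to 0.0849) and Spatc1l without KO-146, WT-96 or WT-99 (0.0518 to 0.0604). Slc14a1 had 0.0709 with thinned counts.

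Summed markers of endothelial, stellate and Kupffer cells were lower in KO than in WT, and the part of this in other losses was not tested. Over all genes 2.43% rose and 1.54% fell. Summed over the 10 endothelial markers tested of 11, KO libraries had 732 to 762 gene-level CPM, against 935 to 969 in WT. Pecam1 of endothelial junctions (-0.57 ± 0.12, adjusted p = 0.0105) and Ehd3 of sinusoid cells (-0.68 ± 0.13, adjusted p = 0.00319) fell and 0 rose, while Stab2 had 0.01 ± 0.13 and Lyve1 -0.07 ± 0.16, both of either sign among the alternatives. The 5 tested of 10 stellate markers summed to 31.1 to 45.0 CPM in KO, against 51.6 to 69.4 in WT, and Col3a1, a fibrillar collagen (-1.23 ± 0.31), and the transcription factor Hand2 (-0.80 ± 0.20) fell, with Dcn at -0.42 ± 0.24. The 4 tested of 11 Kupffer cell and macrophage markers summed to 35.3 to 40.3 CPM in KO, against 51.3 to 70.5 in WT, where Spi1, the myeloid master factor, fell (-0.71 ± 0.18) and Cd68 and Timd4 had -0.48 ± 0.42 and -0.71 ± 0.36. Defining Kupffer markers such as Clec4f, Vsig4 and Marco had no region. Without 1 library, Ehd3 passed in all 6 fits and Pecam1 was lost without KO-122, WT-99 or WT-106 (adjusted p = 0.0504 to 0.0783). Col3a1 and Hand2 were lost without KO-146, KO-190, WT-99 or WT-106 (0.101 to 0.119 and 0.0509 to 0.17) and Spi1 without any library but WT-99 (0.0617 to 0.104). Col3a1 had 0.0581 with cyclic loess and 0.127 with thinned counts, Hand2 0.0533 with thinned counts, and with regions at gene ends alone Ehd3, Pecam1 and Hand2 had 0.105, 0.0581 and 0.271.

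Markers of other types were not lower throughout. Of 2 tested lymphocyte markers of 6, Ptprc, the pan-leukocyte antigen CD45, fell (-0.69 ± 0.19) and Cd4 had 119.0, 84.5 and 89.2 CPM in KO, against 68.4, 64.4 and 65.6 in WT (0.56 ± 0.16, adjusted p = 0.0507). The 3 tested of 7 cholangiocyte markers summed to 293 to 329 CPM in KO, against 254 to 284 in WT, with 0.24 ± 0.18 for Sox9. The 21 hepatocyte markers summed to 7456 to 8148 CPM in KO, against 6523 to 7930 in WT. Foxa2, a pioneer factor of liver, rose (0.43 ± 0.09, adjusted p = 0.0114), while Cebpa had 0.33 ± 0.14 and Alb -0.07 ± 0.18, of either sign among the alternatives. A region inside Onecut1, which encodes the hepatocyte factor HNF6, a partner of HDAC3 at lipid genes in mouse liver, rose (chr9:74861941-74862631, 1.15 ± 0.28, adjusted p = 0.0196, chosen after its value was seen). In a bulk sample, fewer cells of a type and less acetylation per cell cannot be told apart. Ptprc did not pass without any 1 of the 6 libraries (adjusted p = 0.058 to 0.152) or with regions within 10 kb (0.0548). Foxa2 was lost without KO-190, WT-96 or WT-99 (0.0547 to 0.0683) and the Onecut1 region without KO-122, KO-190, WT-96 or WT-106 (0.058 to 0.154).

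The median log2 fold change was -0.43 for endothelial, -0.51 for stellate and -0.71 for Kupffer cell markers. With cyclic loess it was -0.45, -0.34 and -0.56 for the same lists, and 3, 1 and 1 of their members passed as lower. With the 6 chow libraries alone 5 endothelial markers fell, as many as with the mitochondrial term. Of the hepatocyte markers 4 rose and 1 fell with the 6 libraries alone, and 7 rose with the mitochondrial term. On PTU/LID, in other libraries, the medians of KO over WT were -0.17, -0.52 and 0.15 for the same lists.

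Promoter windows from 250 bases before to 50 after a gene's start, taken from RefSeq for GRCm38.p6, were searched for receptor motifs. Of the 818 regions that rose outside the chromosome left out of this search, 16.5% lay on such a window, and of the 420 that fell 4.52% did, against 8862 of 51001 regions of the table (17.4%). The half-site AGGTCA, read on both strands, was in 33 of 162 windows on regions that rose (20.4%) and in 1 of 19 on regions that fell (5.26%), against 5336 of all 32817 windows (16.3%). The thyroid hormone element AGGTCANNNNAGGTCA was in 5 of all windows and in 0 on called regions of either direction. The direct repeat AGGTCANAGGTCA, bound by PPARs, was in 13 of all windows and in 0 on called regions. Both longer motifs are so rare (0.0152% and 0.0396% of all windows) that 0 on called regions cannot tell these from other windows. None of these motifs is in the windows printed above. Each longer motif contains the half-site.

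The same genotype comparison on PTU/LID, with 3 other KO and 3 other WT libraries, gave 1665 regions higher (3.17%) and 367 lower (0.698%), 3.86% in all, and 559 genes higher (4.88%) and 160 lower (1.4%), 6.28% in all. The libraries are not shared with the chow comparison, but the estimate of the spread is. Of the 845 regions that rose on chow, 733 (86.7%) had the same sign on PTU/LID and 277 (32.8%) passed there as higher, with 0 that passed there as lower. Over all regions above 0 on chow 59.5% had the same sign. Of the 433 that fell, 337 (77.8%) had the same sign and 36 (8.31%) passed as lower, while 5 passed as higher. Over all regions below 0 on chow 62.5% had the same sign. The median log2 fold change was 0.93 on chow and 0.51 on PTU/LID for regions that rose on chow, and -1.20 and -0.31 for those that fell. These regions were chosen for passing on chow, and their chow values carry that choice.

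The difference between the diets was tested directly. It passed at 121 regions (0.23%), 83 with a higher and 38 with a lower value on PTU/LID (0.158% and 0.0722%), and at 46 genes (0.402%), and 16 of these genes had also passed on chow. Cyp3a16 rose by 1.82 ± 0.26 on chow and had -0.27 on PTU/LID (difference, PTU/LID minus chow, -2.09 ± 0.38, adjusted p = 0.0381), and Mup17 had 1.64 ± 0.17 and 0.40 (difference -1.23 ± 0.24, adjusted p = 0.0381). Sult2a7, chosen after its values were seen, went the other way, with 0.67 ± 0.13 on chow and 1.92 on PTU/LID (difference 1.25 ± 0.19, adjusted p = 0.00312). For the Sult2a family the medians were 1.51 on chow and 1.42 on PTU/LID, for Mup 1.05 and 0.53 and for Cyp3a 0.84 and 0.51. Genes induced by thyroid hormone had medians of 0.33 on chow, with 4 of 15 higher, and 0.38 on PTU/LID, with 6 higher, and the difference passed for 0 of them with edgeR, with 6 at an unadjusted p below 0.05, for 1 with DESeq2 and for 0 with cyclic loess. Dio1 had 0.66 ± 0.17 on chow and -0.04 on PTU/LID, a difference of -0.70 (adjusted p = 0.321), and Scd1 0.98 ± 0.11 and 1.62, a difference of 0.64 (adjusted p = 0.0912). The count of 46 genes was 14, 50 and 7 without KO-122, KO-146 and KO-190, and 43, 20 and 30 without WT-96, WT-99 and WT-106. Sult2a7 on chow was lost without WT-99 (adjusted p = 0.0547).

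**Figure D4:**
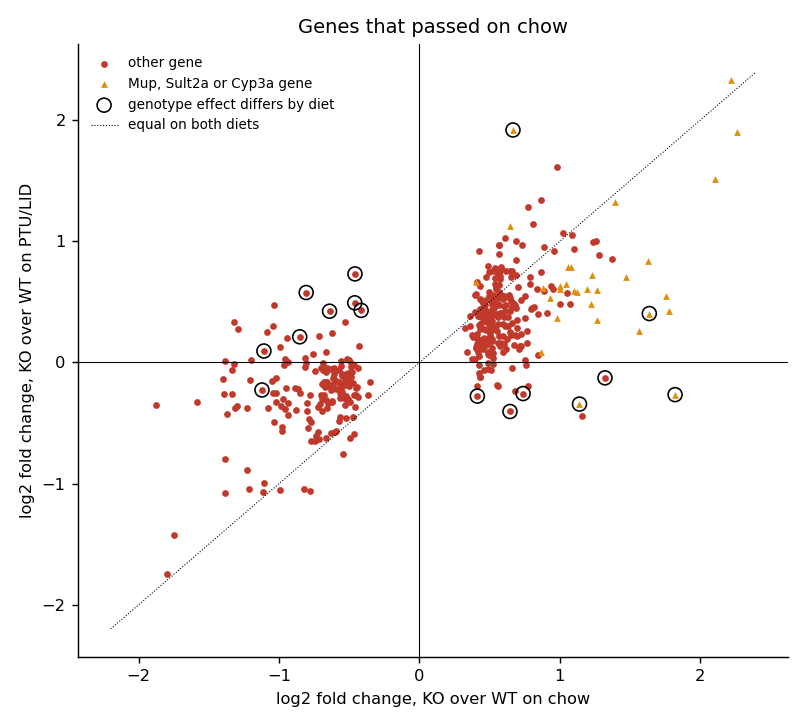
Each point is 1 of 454 genes that passed on chow, with its log2 fold change, KO over WT, on chow (horizontal) and on PTU/LID (vertical). Triangles are Mup, Sult2a and Cyp3a genes, black rings mark the 16 genes whose genotype difference itself differed by diet, and the dotted line marks equal values. Of the 278 genes that rose on chow 255 lie above 0 on PTU/LID, and of the 176 that fell 148 lie below 0.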

How the data were processed

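H3K27ac was measured by ChIP-seq in 12 libraries, and the deposited table gives raw read counts per library over 52645 shared regions, with each region's length. The submitters' processing notes name mm10, MACS2 2.1.1, Bowtie2 2.2.1, bedtools 2.26.0, Picard 2.8.1 and bcl2fastq 2.17.1.14, without their roles. How the authors made the shared regions or treated duplicates is not given in the sources used here, and 4 input libraries are not analysed here.

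Counts were tested with edgeR 4.0.16 in R 4.3.3 (quasi-likelihood, robust, TMM, filterByExpr with a minimum count of 10) over all 12 libraries, with 1 mean per group. KO minus WT on chow and the difference of this effect between diets were the contrasts, with Benjamini-Hochberg adjusted p below 0.05. A region went to the gene holding its midpoint, otherwise to the gene with the nearest end within 50 kb, by RefSeq positions of 21887 protein-coding genes of GRCm38.p6, and 11460 genes received one. Transcript starts, planned for the gene-end alternative, were not known for all genes, so both gene ends within 2.5 kb were used. Promoter windows matched 9179 of 11448 genes tested, and chromosome 18 was left out of the window search. A uniform change of the mark over the whole genome would not show in CPM of these regions. Totals ran from 2965505 to 6707960 counts per library.

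DESeq2 1.42.0, limma 3.58.1 with voom and cyclic loess, other scalings and filters, thinning, a mitochondrial-share term, other gene assignments and leaving out each chow library were the alternatives, and the procedures were tested on simulated data. The text names the 10 regions and 10 genes with the largest change in each direction among those that passed, without overlap of the groups and with at least 5 CPM (regions) or 10 CPM (genes) in the higher group, at most 1 region per gene. It also names all members of the thyroid hormone and corepressor lists, up to 4 passing members of each other list and up to 2 others of high level. Names given as chosen after their values were seen, and promoter regions of named genes, were added, and some genes that this rule names are not reported here. Members and lists were chosen with earlier results of these data known.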

Additional observations from a re-analysis of the deposited data

Results flagged for a closer look

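The genotype effect differed between chow and PTU/LID, by the test of that difference in edgeR's quasi-likelihood fit, for 5 named regions and 3 named genes, given here as the log2 fold change of KO over WT on PTU/LID minus that on chow. It was -2.64 for the region at Cyp3a41b and -2.24 for that at Cyp3a41a, both of which rose on chow. At 2 Mup regions, in the Mup-ps12 locus and near Mup10, it was -1.96 each. The genes Cyp3a16 and Mup17 had -2.09 and -1.23. Going the other way, Sult2a7 had 1.25, with a larger gain in KO on PTU/LID, and the region on the Tat promoter had 1.56, with a loss in KO on chow and a value of 0.56 on PTU/LID that did not pass. Groups of 3 libraries were too small to look for single outlying libraries.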

How the results depend on the processing

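Of 133 named results 91 passed, and 36 of these kept their call and direction in every alternative run for them, while 55 lost the call in at least 1, and none of the 91 changed sign. Of the 1278 region calls, the number shared was 1087 with DESeq2, 953 with cyclic loess, 817 with library totals and 421 to 689 with 1 library left out, all with the same sign. The cause of these shifts was not tested. Thinning all libraries to the smallest gave 777 regions, of which 695 are among the 1278, and how the lost calls are spread over weak and strong regions was not examined.

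The count of 1278 regions became 2523 with the 6 chow libraries alone, 2117 with library totals, 4008 with a term for the mitochondrial share, 359 at an adjusted p below 0.01 and 667 at an absolute log2 fold change of at least 1, and ran from 448 to 799 with 1 library left out. The count of 454 genes became 1204 with the 6 libraries, 1533 with the mitochondrial term, 691 with totals of nuclear regions (added after the data were seen), 229 with gene ends alone, 114 at 0.01 and 72 at a change of at least 1, and ran from 109 to 253 with 1 library left out. The count of 46 genes that differed by diet became 107 with DESeq2, 73 with cyclic loess, 79 with library totals, 75 with nuclear totals, 213 with the mitochondrial term, 19 with gene ends alone, 4 at 0.01 and 29 at a change of at least 1, and ran from 7 to 50 with 1 library left out.

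Named genes that changed sign had not passed in either setting. With cyclic loess the log2 fold change was 0.0059 for Ncor1, 0.016 for Hdac3, -0.0032 for Insig1, -3e-04 for Ppara, -0.0044 for Cyp2b13, -0.0161 for Igf1, -0.074 for Crp, -0.0555 for Actb and -0.095 for Stab2. With library totals and with nuclear totals it was -0.0156 and -0.0183 for Atp2a2, -0.1145 and -0.1168 for Thra, -0.0661 and -0.0686 for Crp, -0.0482 and -0.0505 for Actb and -0.103 and -0.105 for Stab2. With the mitochondrial term it was 0.0027 for Ppargc1a, -0.0101 for Thra and 0.0203 for Alb. With gene ends alone it was -0.2084 for Thra, 0.1752 for Pcx, -0.618 for Aldh1a1, 0.3195 for Ghr, -0.8813 for Stab2 and 0.0045 for Lyve1. Thra also had -0.0045 with the 6 libraries, -0.0014 with no filter and -0.0086 with a mean of at least 30 counts, Thrb 0.0013 with DESeq2 and 0.0052 with regions within 10 kb, and Stab2 -0.0161 with thinned counts. With 1 library left out the values ran from -0.188 to 0.0051 for Ppargc1a, -0.0587 to 0.1969 for Atp2a2, -0.1667 to 0.0944 for Ncor1, -0.1737 to 0.117 for Hdac3, -0.2289 to 0.1077 for Thra, -0.0508 to 0.038 for Thrb, -0.0961 to 0.0239 for Pcx, -0.0141 to 0.3366 for Igf1, -0.2131 to 0.0128 for Ghr, -0.1285 to 0.0447 for Alb, -0.0839 to 0.108 for Stab2 and -0.2173 to 0.091 for Lyve1.

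No paired analysis was possible because KO and WT libraries share no numbers in the labels.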
